A study of Mus musculus with 11 samples.

Results

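The collagens, laminins and integrins are the genes that build the extracellular matrix and the receptors with which cells hold on to it. Members were the genes whose symbols fit the naming patterns of collagen chains, laminin chains and integrin subunits, with fibronectin (Fn1) and Sparc added. There were 84 of 19938 measured genes: 44 collagens (11 fibrillar, 8 of the basement membrane and 25 others), 10 laminin chains, 18 integrin alpha and 9 integrin beta subunits, Fn1 and Sparc. The last member, Itgb3bp, fits the pattern by its symbol but encodes a centromere protein that was named for binding an integrin, and it is kept apart here.

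Samples were taken from embryos of outbred CD1 mice at E8.5, by laser capture from frozen sections: neuroepithelium (3 arrays), neural crest (5 arrays) and paraxial mesoderm (3 arrays). All 3 groups share strain and stage, and no treatment or genetic change is named. Each sample was amplified and hybridised to 1 Affymetrix mouse ST array. The series title speaks of single cells, but the labels tie no array to a cell number or an embryo, so the spread behind each p-value is that of arrays, which may be technical. In such samples, fewer cells of a type and less RNA per cell cannot be told apart.

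Collagens assemble from 3 chains each. Fibrillar collagens give interstitial matrix its tensile strength, whereas type IV collagen and laminins form the sheet-like networks of the basement membrane. Integrins are receptors of 1 alpha and 1 beta subunit that bind these proteins outside the cell and link to actin inside it. Neural crest cells leave an epithelium that rests on a laminin-rich basement membrane and migrate over fibronectin and other matrix through paraxial mesoderm, using integrins as they move.

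Each deposited value is a ratio: a probe's signal on an array relative to that probe's own reference. For most members that reference lies close to the median over arrays. Some medians strayed further from it, as for Lamb2 (0.858), Col6a4 (0.883) and Col26a1 (0.902). Many members, among them collagens on mesoderm array 2, read exactly 1 on an array. A ratio near 1 therefore mostly says that an array resembled most others for that gene. It gives no expression level, since a silent gene and a gene equally active everywhere both sit near 1.

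Few matrix and integrin genes left their reference by 2-fold or more. Of the 84 members, 79 (94.0%) never left it by 2-fold or more, compared with 71.7% of the 19854 other genes. A departure of 2-fold or more on any array was found for 5 members (5.95%, against 28.2% of all genes), namely Sparc, Itgb1, Itgb3bp, Col1a2 and Col9a3. A 4-fold departure was reached by 2 members, Sparc and Itgb1 (2.38%, against 24.9% of all genes), and 0 members were 4-fold low on any array. Quantile normalization, which forces the same distribution on every array, raised these counts to 24 and 8 members (28.6% and 9.52%, against 35.5% and 25.1% of all genes). Small variation was not lower among members. The median standard deviation of the log2 ratio over arrays was 0.142 for members, against 0.126 for all genes. It was 0.198 for collagens, 0.094 for laminin chains and 0.102 for integrin subunits.

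**Figure D1:**
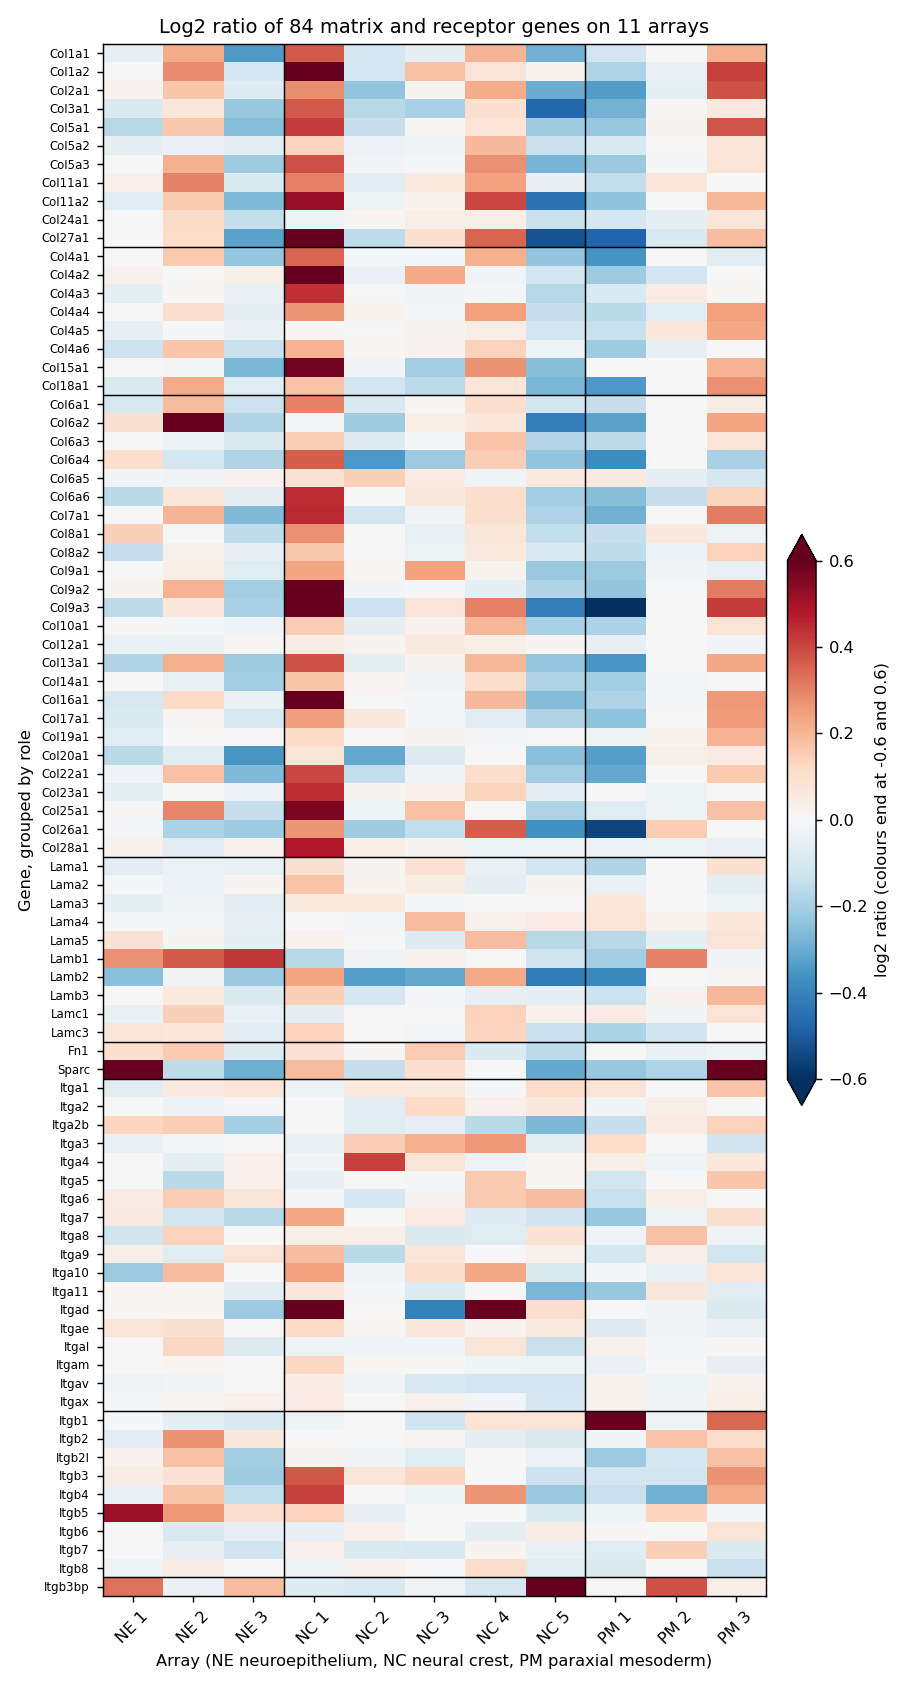
Heat map of the log2 ratio of each of the 84 members (rows, grouped by role and separated by lines) on the 11 arrays (columns, grouped by tissue); colours end at -0.6 and 0.6. Most rows are pale, Sparc is dark on 2 arrays and Itgb1 on 1, and the collagen rows share a red column at neural crest array 1 and blue columns at neural crest array 5 and paraxial mesoderm array 1.

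Promoter sequences are shown for the 2 members with 4-fold departures (Sparc and Itgb1), for the fibrillar collagen that moved most (Col1a2) and for the laminin chain with the clearest tissue pattern (Lamb1). They are the 250 bases before the annotated start, 5′ to 3′ on the gene's strand, from RefSeq on GRCm38.p6. Capitals mark matches, on either strand, to the GC box GGGCGG or the CCAAT box CCAAT. The TATA box TATAAA was also searched. None of the 3 motifs overlapped another in these windows.
Sparc, chr11:55420081-55420330, minus strand: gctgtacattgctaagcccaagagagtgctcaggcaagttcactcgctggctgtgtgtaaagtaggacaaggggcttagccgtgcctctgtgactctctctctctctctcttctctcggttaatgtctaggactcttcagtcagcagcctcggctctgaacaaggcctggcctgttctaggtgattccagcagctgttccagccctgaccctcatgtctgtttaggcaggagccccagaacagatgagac
Itgb1, chr8:128685404-128685653, plus strand: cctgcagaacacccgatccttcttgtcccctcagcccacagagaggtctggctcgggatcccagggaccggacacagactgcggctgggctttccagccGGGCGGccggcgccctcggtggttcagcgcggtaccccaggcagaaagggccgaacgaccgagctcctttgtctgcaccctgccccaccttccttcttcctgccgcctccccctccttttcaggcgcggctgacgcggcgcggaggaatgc
Col1a2, chr6:4505368-4505617, plus strand: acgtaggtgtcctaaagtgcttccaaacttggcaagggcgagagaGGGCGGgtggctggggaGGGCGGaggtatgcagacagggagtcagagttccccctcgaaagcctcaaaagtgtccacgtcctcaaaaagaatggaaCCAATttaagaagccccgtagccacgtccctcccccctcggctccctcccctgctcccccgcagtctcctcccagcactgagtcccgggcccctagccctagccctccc
Lamb1, chr12:31265043-31265292, plus strand: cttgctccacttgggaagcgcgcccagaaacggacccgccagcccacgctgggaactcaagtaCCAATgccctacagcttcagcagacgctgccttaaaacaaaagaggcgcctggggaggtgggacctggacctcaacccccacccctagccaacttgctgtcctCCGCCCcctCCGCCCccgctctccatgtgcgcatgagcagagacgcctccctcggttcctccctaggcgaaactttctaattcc

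The windows differ in base composition. The Itgb1 window holds 21 CpG dinucleotides and 68% G and C, Lamb1 14 and 62%, Col1a2 11 and 62%, and Sparc 4 and 54%. The median over 32841 promoters was 6 CpG and 52.4%, and over the 67 promoters of the 61 members with an entry it was 10 and 58%. Col1a2 and Lamb1 each hold 2 GC boxes and 1 CCAAT box, Itgb1 holds 1 GC box, and the letters of neither box occur in the Sparc window. A GC box occurs in 32.7% of all such promoters, a CCAAT box in 33.9% and TATAAA, which is in none of the 4 windows, in 12.4%. These are matches of letters and not shown binding sites.

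Among the glycoproteins, Sparc (probe 10386058) encodes a matrix protein that binds collagen. Its ratio was 77.9, 0.900 and 0.816 on the 3 neuroepithelium arrays. On the crest arrays it was 1.14, 0.910, 1.07, 1.00 and 0.809, and on the mesoderm arrays 0.855, 0.880 and 59.4. Sparc was thus far above its reference on neuroepithelium array 1 and paraxial mesoderm array 3, and near it on the other 9 arrays. Crest held no high array, but the tissues overlapped. The differences did not pass in limma: neural crest lay below neuroepithelium by -1.98 on the log2 scale (SE 1.79, 95% interval -6.05 to 2.09, adjusted p = 1) and below mesoderm by -1.86 (SE 1.79, interval -5.93 to 2.21, adjusted p = 1.00). Without the high array of the other tissue they became 0.19 and 0.18.

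On the Sparc-high arrays 0 other members were 2-fold off. On neuroepithelium array 1 and mesoderm array 3, Col4a1 was at 1.00 and 0.956, Col4a2 at 1.02 and 1.00, Lama1 at 0.957 and 1.07, and Fn1 at 1.07 and 0.978. Parietal endoderm makes Sparc together with type IV collagen and laminin. Of its 7 listed markers, such as Sox7, Gata6 and Thbd, 0 were 4-fold high on any array, and a ratio near 1 gives no expression level. Other markers differed between the arrays: 3 of 10 surface ectoderm markers were 4-fold high on neuroepithelium array 1 (Krt8, Krt18 and Epcam), and Krt8, Foxa2 (7.64) and Nog (9.63) were high on mesoderm array 3. The part of parietal endoderm or of any of these other cell types in the Sparc values was not tested.

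Fn1 (probe 10355403), the fibronectin over which crest cells migrate, had ratios of 1.07, 1.12 and 0.948 in neuroepithelium. They were 1.06, 1.01, 1.11, 0.944 and 0.898 in crest, and 1.00, 0.969 and 0.978 in mesoderm. All 3 tissues overlapped. The difference of neural crest from neuroepithelium was -0.06 (95% interval -0.23 to 0.12) and from mesoderm 0.03 (-0.15 to 0.21). Relative differences of that size or smaller remain possible within these intervals.

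**Figure D2:**
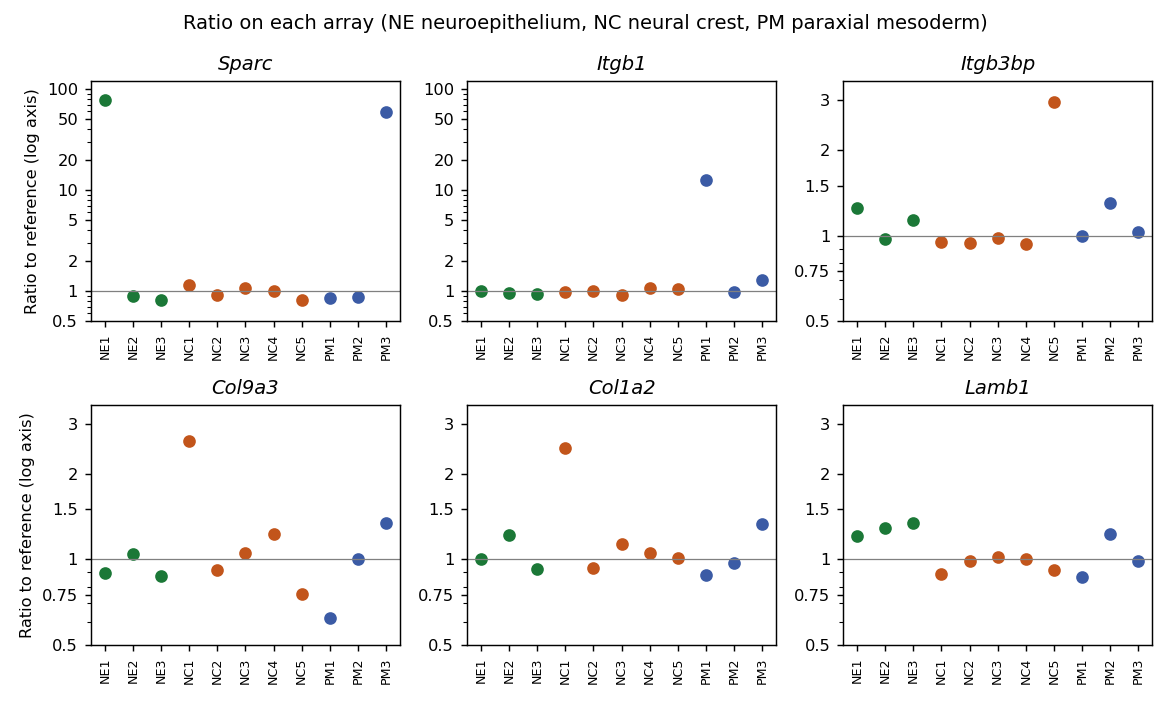
Ratio to reference on each of the 11 arrays (points coloured by tissue, log axes) for Sparc, Itgb1, Itgb3bp, Col9a3, Col1a2 and Lamb1. Sparc is high on neuroepithelium array 1 and mesoderm array 3, Itgb1 on mesoderm array 1, and both collagens on crest array 1. Lamb1 is slightly raised on all neuroepithelium arrays and mesoderm array 2. The lower row and Itgb3bp have a narrower axis.

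The beta1 integrin Itgb1 (probe 10576661), the shared partner of most alpha subunits that bind fibronectin, laminin and collagen, was high on a single array. Its ratio was 12.6, 0.978 and 1.27 in paraxial mesoderm. In neuroepithelium it was 0.995, 0.961 and 0.937, and in crest 0.980, 1.00, 0.920, 1.06 and 1.05. Mesoderm array 1 stood far above all others, mesoderm array 3 slightly above the other tissues, and mesoderm array 2 within their range. In limma the difference of crest from mesoderm was -1.32 (SE 0.71, interval -2.93 to 0.29, adjusted p = 1.00), and -0.15 without mesoderm array 1. Mesoderm differed from neuroepithelium by 1.38 (SE 0.79, adjusted p = 1.00), and by 0.21 without that array.

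Alpha subunits that pair with Itgb1 stayed near their reference where it was high. On mesoderm array 1, the fibronectin receptor subunit Itga5 was at 0.927, Itga4 at 1.02, the laminin receptor subunits Itga3 and Itga6 at 1.08 and 0.912, and Itgav at 1.02. That array carried the red cell markers of the series: all 7 measured markers of primitive erythrocytes were 4-fold high there and 0 on any other array. It also had the most genes at least 4-fold high, 1617 against 381 to 1500 on the other arrays. Whether either bears on the Itgb1 value was not tested.

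All 18 alpha subunits stayed within 2-fold. They ran from 0.756 to 1.62, both ends from Itgad, a leukocyte subunit, on crest arrays 3 and 1. Itgad was also 1.58 on crest array 4. Its second probe read 1.00, 1.00 and 1.08 on crest arrays 1, 3 and 4, so the probes disagree. Itga4, a receptor subunit for fibronectin and Vcam1 found on migrating crest, was 1.33 on crest array 2, while the remaining crest values ran from 0.979 to 1.06. In neuroepithelium it was 0.998, 0.960 and 1.02, and in mesoderm 1.02, 0.983 and 1.04. Itgav, which pairs with several beta subunits to bind vitronectin and fibronectin, had the narrow span of 0.923 to 1.03.

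Itga5 lay between 0.893 and 1.12 over all arrays. Itga6, which pairs with beta1 or beta4 as a laminin receptor, was 1.03, 1.11 and 1.05 in neuroepithelium and 0.912, 1.02 and 1.00 in mesoderm. These do not overlap, and the log2 difference of mesoderm from neuroepithelium was -0.12 (SE 0.08, limma adjusted p = 1.00). Crest spanned both, from 0.929 to 1.14. Itgae, the alphaE subunit of lymphocytes, was 0.948, 0.985 and 0.974 in mesoderm, below every array of the other tissues (1.00 to 1.08). Its differences were 0.10 for crest minus mesoderm (SE 0.04, limma adjusted p = 1.00) and -0.10 for mesoderm minus neuroepithelium (SE 0.04, adjusted p = 1.00).

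Of the 9 beta subunits, 8 stayed within 2-fold. Itgb5, which pairs with Itgav, read 1.43, 1.20 and 1.07 in neuroepithelium. Crest read 1.10, 0.968, 1.00, 1.00 and 0.946, and mesoderm 0.982, 1.09 and 0.993. Neuroepithelium arrays 1 and 2 were above all others and array 3 was not. The log2 difference of crest from neuroepithelium was -0.29 (SE 0.09, unadjusted p = 0.0122, limma adjusted p = 1). It was -0.18 without neuroepithelium array 1 and -0.59 after quantile normalization, and that of mesoderm from neuroepithelium, -0.26, became -0.15 and -0.51. Itgb3 and Itgb4 were highest on crest array 1, at 1.29 and 1.33.

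Itgb3bp, the centromere protein, was 2.96 on crest array 5, against 0.932 to 0.985 in the rest of crest. Neuroepithelium read 1.25, 0.973 and 1.14, and mesoderm 1.00, 1.30 and 1.03.

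Laminins are trimers of an alpha, a beta and a gamma chain, and Lama1, Lamb1 and Lamc1 form the main laminin of early embryonic basement membranes. All 10 chains stayed within 1.5-fold on every array, with a span from 0.748 (Lamb2, crest array 5) to 1.34 (Lamb1, neuroepithelium array 3). Lamb1 (probe 10395163) was 1.21, 1.29 and 1.34 in neuroepithelium. Crest read 0.891, 0.987, 1.02, 1.00 and 0.919, and mesoderm 0.869, 1.23 and 0.988. Every neuroepithelium array lay above every crest array, while mesoderm array 2 reached the neuroepithelium range.

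Lamb1 had the smallest p of any member. Crest lay below neuroepithelium by -0.41 on the log2 scale (SE 0.10, 95% interval -0.65 to -0.18), with unadjusted p = 0.00334 and adjusted p = 1 in limma over 19938 genes. Mesoderm lay below neuroepithelium by -0.33 (SE 0.12, unadjusted p = 0.0197, adjusted p = 1.00). After quantile normalization these differences were -0.79 and -0.53, with adjusted p = 0.974 and 1.00, and with array weights the second was -0.16. For the other chains of that laminin the tissues overlapped. Lama1 read 0.957, 0.976 and 0.970 in neuroepithelium and 0.926 to 1.06 in crest. Lamc1 read 0.971, 1.11 and 0.974 in neuroepithelium and 0.963 to 1.10 in crest. Lama5, the alpha chain of later epithelial basement membranes, spanned 0.891 to 1.14 over all arrays.

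The keratin Krt18, a marker of surface ectoderm, was far above its reference on the 4 arrays where Lamb1 was slightly raised (1.21 to 1.34). It read 91.6, 72.4 and 78.6 in neuroepithelium and 88.8 on mesoderm array 2, and 0.825 to 1.04 on the other 7 arrays. Other markers of the list did not share this exact pattern. Epcam was 1.00 on mesoderm array 2, and Krt8 was also high on crest array 3 (36.3) and mesoderm array 3 (30.5). Krt19 was high on mesoderm array 2 alone (65.0), and Trp63 reached at most 1.21. Of the 10 surface ectoderm markers, 3, 5 and 5 were 4-fold high on the neuroepithelium arrays, 4 on mesoderm array 2, and at most 1 on any other array. The summed log2 ratio of the list was 17.6 to 28.2 in neuroepithelium and 22.0 on mesoderm array 2, and 7.06 or less elsewhere. Their part in the Lamb1 values was not tested.

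The 44 collagens moved little but together. On neural crest array 1 their median ratio was 1.25, and 42 of 44 were above 1. Quantile normalization raised that median to 1.41. The median was also raised on mesoderm array 3 (1.08), crest array 4 (1.07) and neuroepithelium array 2 (1.05). It was lowest on mesoderm array 1 (0.865, with 1 collagen above 1), crest array 5 (0.878, 3 above 1) and neuroepithelium array 3 (0.914, 4 above 1). On crest arrays 2 and 3 it was 0.980 and 1.01, on neuroepithelium array 1 0.992 and on mesoderm array 2 1.00. Each tissue therefore held arrays on both sides, and crest alone spanned 0.878 to 1.25.

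The medians of laminins and integrins lay nearer to 1. They were 1.05 and 1.02 on crest array 1, and 0.903 and 0.982 on mesoderm array 1. Genes within 2-fold on every array (14316) had a median of 1.01 and 0.991 there. On crest array 1, 84.1% of collagens exceeded the reference by more than 10%, compared with 24.3% of those genes. On mesoderm array 1, 72.7% of collagens were below it by a factor of more than 1.1, against 18.9%. Such shifts were not confined to matrix genes. The cardiac and paraxial mesoderm marker lists had median log2 ratios of 0.13 and 0.13 on crest array 1, and -0.24 and -0.09 on mesoderm array 1. Not every list moved so: the endothelium list was at 0.00 on crest array 1, and the erythrocyte list at 6.26 on mesoderm array 1.

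**Figure D3:**
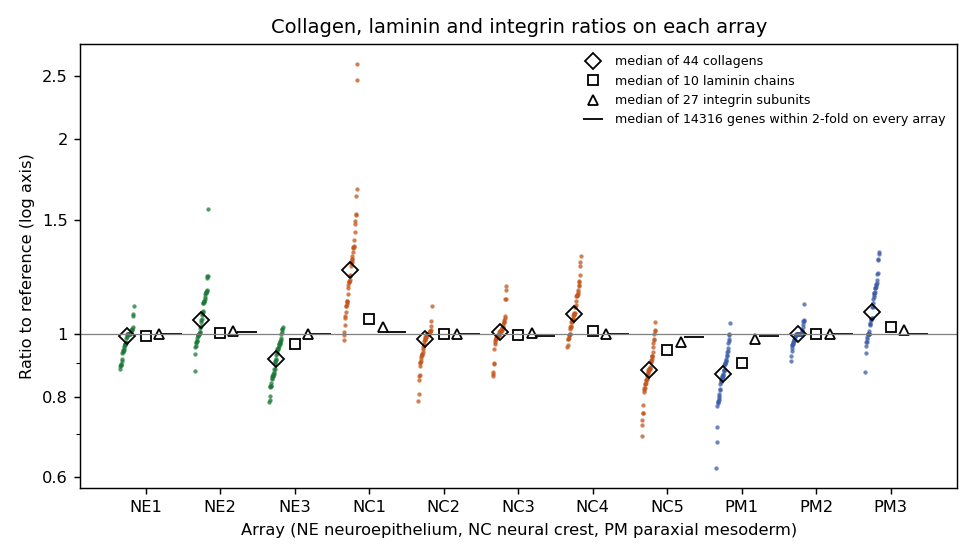
Ratio to reference (log axis) of the 44 collagens on each of the 11 arrays (small points coloured by tissue), with the medians of the collagens, laminin chains, integrin subunits and of 14316 genes within 2-fold on every array (black symbols). The collagen median ranges from 0.865 on mesoderm array 1 to 1.25 on crest array 1, and the other medians stay nearer to 1.

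Likeness to the collagen profile was described by Pearson's r over the 11 arrays with the median of the collagens, a collagen being left out of its own median. It was at least 0.7 for 37 of 44 collagens (84.1%, median r 0.84), 4 of 10 laminins (Lamb2, Lamc3, Lamb3 and Lama1) and 4 of 27 integrin subunits (Itgb4, Itgb3, Itga7 and Itga11). Of 14274 other genes within 2-fold on every array, 2300 (16.1%) also reached it. The points share arrays, so r describes these arrays and is no test.

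Fibrillar collagens followed the profile, with 10 of 11 at r of 0.7 or more. Col1a1, a chain of type I collagen, was 1.29 on crest array 1, 0.820 on crest array 5 and 0.923 on mesoderm array 1. Its partner chain Col1a2 (probe 10536220) was 2.47 on crest array 1, and 0.931, 1.13, 1.05 and 1.01 on the other crest arrays. Neuroepithelium read 1.00, 1.22 and 0.928 and mesoderm 0.881, 0.972 and 1.33, so Col1a2 was high on 1 array alone. Col2a1, the collagen of cartilage and notochord sheath, spanned 0.792 to 1.30, with its highest value on mesoderm array 3. Col3a1 spanned 0.722 to 1.29, Col11a2 0.736 to 1.44 and Col27a1 0.695 to 1.53.

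Of the 8 basement membrane collagens, 7 had an r of 0.7 or more. Col4a1 and Col4a2, which lie head to head and form the main type IV network, read 1.27 and 1.53 on crest array 1 and 0.782 and 0.864 on mesoderm array 1. On the other arrays Col4a1 lay between 0.850 and 1.16 and Col4a2 between 0.923 and 1.17. Col4a3 was 1.35 on crest array 1, and Col15a1, a chain found next to basement membranes, was 1.49 there.

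The 25 other collagens include chains that decorate fibrils, beaded filaments and transmembrane forms. Col9a3 (probe 10479423), a chain of the cartilage collagen type IX, ranged furthest. It was 2.61, 0.916, 1.06, 1.23 and 0.753 in crest, 0.897, 1.04 and 0.873 in neuroepithelium, and 0.621, 1.00 and 1.34 in mesoderm, so the tissues overlapped. Its companion Col9a2 was 1.67 on crest array 1, and Col16a1 was 1.63 there. Col6a2, a chain of beaded filaments, departed from the pattern with 1.56 on neuroepithelium array 2 and 0.996 on crest array 1. Of 44 collagens, 30 were highest on crest array 1, while 21 were lowest on mesoderm array 1 and 13 on crest array 5.

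The collagen order ran against the number of genes that stood high on an array. The 4 arrays with raised medians had 381 to 580 genes at least 4-fold above reference. The 3 arrays with the lowest medians had 1122 to 1617, and the other 4 arrays 735 to 1159. Genes at least 4-fold below reference went the other way: there were 297 to 503 on the arrays with raised medians, 67 to 108 on those with the lowest, and 73 to 220 on the other 4. The part of these array properties in the collagen values was not tested.

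**Figure D4:**
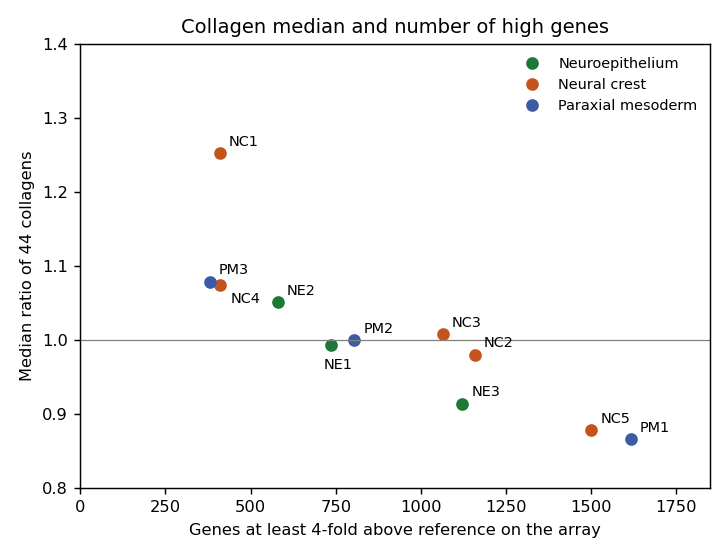
Median ratio of the 44 collagens (vertical axis) against the number of genes at least 4-fold above reference (horizontal axis) for each of the 11 arrays, coloured by tissue. The arrays with 381 to 580 high genes lie above 1, crest array 1 highest at 1.25, and the arrays with 1500 and 1617 high genes are lowest.

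By tissue means, 40 of 44 collagens were higher in crest than in neuroepithelium (median log2 difference 0.07, 50.2% of all genes higher), and 37 of 44 higher than in mesoderm (median 0.07, 51.2%). These counts rest on few arrays. Without crest array 1 they were 25 and 26, and without mesoderm array 1 the second was 20. Mesoderm exceeded neuroepithelium for 23 of 44 (48.6% of all genes), and this count was no more stable: it was 8 without mesoderm array 3, 12 without neuroepithelium array 3 and 36 without mesoderm array 1. After quantile normalization the 2 median differences of crest were both 0.11. Of the 44 collagens 0 passed in any comparison in limma, and 0 reached an unadjusted p under 0.05.

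Across the whole table, no member separated the tissues by the test. For neural crest against neuroepithelium 0 of 84 members passed in limma, where 0.0301% of all genes did (0.01% higher and 0.0201% lower in crest), and 2 members (Lamb1 and Itgb5) had an unadjusted p under 0.05, against 2.79% of genes. For neural crest against paraxial mesoderm 0 passed (0.01% of genes), and Itgae alone had an unadjusted p under 0.05 (2.89% of genes). For paraxial mesoderm against neuroepithelium 0 passed (0.015%), and Lamb1, Itgae and Itgb5 were under 0.05 unadjusted (2.48%). The F test among the 3 tissues passed 0 members (0.0301% of genes) and put 3 under 0.05 unadjusted (2.57%). The unadjusted counts are near the background and unstable: leaving out 1 array gave 2 to 4, 1 to 3 and 0 to 4 in the 3 comparisons, the last 0 without mesoderm array 3. The mesoderm and neuroepithelium count was also 0 when those 2 tissues were fitted alone. A fit with a variance trend on the mean log2 ratio, which is no intensity, also passed 0 members in all 3 comparisons.

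The share of members separated without overlap was near that of all genes. Neural crest and neuroepithelium did not overlap for 3 of 84 members (Lamb1 lower, against 1.53% of genes, and Lama3 and Col12a1 higher in crest, against 1.45%; 2.98% in either direction), and crest and mesoderm for 3 (Col12a1, Col28a1 and Itgae, all higher in crest, 3.57% of members against 1.46% of genes; 2.66% of genes in either direction). Mesoderm and neuroepithelium did not overlap for 4: Itga6 and Itgae were lower in mesoderm (4.02% of genes), and Itgb6 and Lama4 higher (2.82%; 6.85% in either direction). These counts make 3.57%, 3.57% and 4.76% of the members. None had a mean difference of 1 or more on the log2 scale. The largest such difference belonged to Lamb1, and the other members differed by 0.06 to 0.13 in size. Comparisons share arrays, so a gene named more than once is not seen independently.

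The intervals bound the differences in ratio on the scale of the deposited values. In the comparison of crest with neuroepithelium the median half-width of the 95% interval was 0.23 on the log2 scale, and for 81 of 84 members the whole interval lay between -1 and 1. The exceptions were Sparc, Itgb1 and Col9a3. The median difference over the 84 members was 0.06 in that comparison, 0.05 for crest minus mesoderm and 0.00 for mesoderm minus neuroepithelium, beside 0.00 over all genes in each. A relative ratio near 1 leaves the absolute level of these genes unmeasured. For a gene below detection, a short interval excludes no difference in expression. The bounds also depend on scaling: members 2-fold off on some array numbered 5 as deposited and 24 after quantile normalization.

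**Figure D5:**
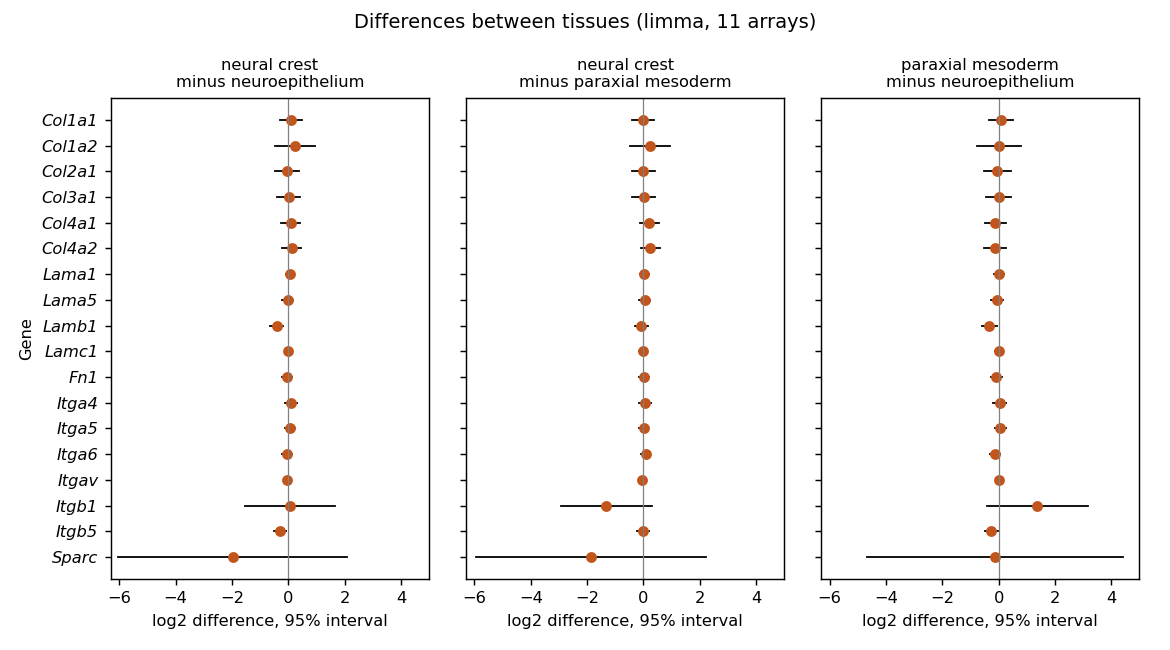
Log2 difference between tissues (points) with its 95% interval (lines) from limma on 11 arrays, for 18 members in the 3 comparisons. Most intervals are short and cross 0; those of Sparc and Itgb1 are widest, and Lamb1 and Itgb5 lie below 0 in both comparisons with neuroepithelium, without passing after adjustment.

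Genes that process or surround the matrix were drawn from 5 further lists. Of their 72 measured genes, 17 (23.6%) departed by 4-fold or more on an array or several, near the 24.9% of all genes and beside 2 of the 84 members. In limma 0 passed in any comparison, where 0.0301%, 0.01% and 0.015% of all genes did. Under an unadjusted p of 0.05 were 0, 3 and 0 of the 72, beside 2.79%, 2.89% and 2.48% of all genes. Of 18 genes of collagen processing 6 were 4-fold off. Plod2, a lysyl hydroxylase, was 46.0 on crest array 1 and 0.943 to 1.27 elsewhere. Crtap, which works in prolyl 3-hydroxylation, was 37.2 on neuroepithelium array 3, 44.2 on crest array 3 and 4.87 on crest array 5. Ppib, a prolyl isomerase of collagen folding, was 0.0150 on crest array 1, and P4hb, a disulfide isomerase and prolyl hydroxylase subunit, was 14.1 on mesoderm array 1. None of the collagens was 4-fold off on any array of the series, so their staying within 4-fold is not particular to those arrays. On crest array 1, Col1a2 was 2.47 and Col9a3 2.61, and 30 of 44 collagens had their highest value there.

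Of 13 cytoplasmic adaptors of integrins 4 were 4-fold high. The kinase-like adaptor Ilk was 9.73 on neuroepithelium array 3, 13.4 on crest array 2 and 12.5 on mesoderm array 1. Its partner Lims1 was 13.2 on neuroepithelium array 3, and 12.0 and 14.1 on mesoderm arrays 1 and 2. The focal adhesion protein Zyx was high on 6 arrays, from 4.42 on neuroepithelium array 1 to 18.3 on crest array 2. Ilk and Lims1 were thus both high on neuroepithelium array 3 and mesoderm array 1, and Itgb1 on the latter alone. On mesoderm array 1 Zyx was also high (8.44), while the rest of the adaptor list read 0.725 to 1.04. Many genes were at least 4-fold high on these arrays, 1122 on neuroepithelium array 3 and 1617 on mesoderm array 1. A link between the adaptors and Itgb1 was not tested.

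Of 14 basement membrane partners 3 were 4-fold high, each on 1 array: Nid2, which links laminin to type IV collagen, on crest array 3 (6.05), the laminin receptor Dag1 on neuroepithelium array 3 (6.77) and the laminin-binding Bcam on mesoderm array 2 (10.2). Among 14 interstitial matrix genes Fbln1 read 2.16, 7.64 and 3.08 in neuroepithelium, 0.699 to 1.37 in crest, and 0.719, 0.970 and 32.6 in mesoderm. Crest lay below neuroepithelium without overlap, as for 1.53% of all genes (log2 difference -2.03, SE 1.13, limma unadjusted p = 0.107). Of the 72 list genes, 2, 3 and 2 did not overlap in the 3 comparisons, where 2.98%, 2.66% and 6.85% of all genes did not. Among 13 proteases and inhibitors 3 were high, including the inhibitor Timp1 at 20.7 on neuroepithelium array 3 and 29.8 on crest array 5.

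The tissue labels were set beside their own markers. Of 10 crest markers, 1, 4, 2, 1 and 5 were 4-fold high on the 5 crest arrays, 0 to 1 on the neuroepithelium arrays and 0 on the mesoderm arrays. Snai1 was 41.2 to 82.1 on all 5 crest arrays and 0.800 to 1.17 on the others, and was the only high marker on crest arrays 1 and 4. Foxd3, Tfap2a, Ets1, Sox5 and Ngfr were 4-fold high on no array. Of 9 neuroepithelium and 12 mesoderm markers, 0 were 4-fold high on an array of their own tissue, which a ratio near 1 leaves undecided. Nes or Fabp7, from the neuroepithelium list, was high on crest arrays 3, 4 and 5. Endothelial markers were 4-fold high on 0 arrays, and of the cardiac list Myl7 alone was, on neuroepithelium array 2. Of the gut endoderm list, Cldn6, which the surface ectoderm list also holds, was high on neuroepithelium array 3 and mesoderm array 2.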

How the data were processed

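Laser-captured tissue was measured on 11 arrays. The deposited values are linear ratios of each array to a reference of its own probe, from 0.01 to 269, and the sources used here do not say how the authors formed that reference; RMA and mm9 are named, per the submitters' processing notes. Being ratios, they carry no level, and precision is limited by the number of arrays. Of 28856 probes with values, 21789 had 1 symbol in the platform annotation (several 1621, none 5446). Each of 19938 genes was represented by its probe of highest mean log2 ratio. Symbols were checked against RefSeq gene names of GRCm38.p6 (21698 matched, 0 changed), and 3 probes naming Rpl35 and Itgam together were left out. All 11 columns were mapped.

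Log2 ratios were taken without a pseudocount, since the ratios are above 0. The 3 group means were fitted over all arrays with lmFit and eBayes in limma 3.58.1 (R 4.3.3), without an intensity trend because ratios hold no intensity. P-values are two-sided and adjusted by Benjamini-Hochberg over all genes, with a threshold of 0.05. The fit was tested on simulated data with normal noise and shifts common to all crest arrays. That setting does not represent genes high on a single array of a tissue, such as Sparc and Itgb1. Members with a departure of at least 4-fold, and 17 matrix and integrin genes chosen for their roles, are named with values; statistics were planned for members that passed or were separated by at least 1 on the log2 scale, and the others are given although chosen after their values were seen. Members and lists were chosen with earlier results of these data known. Alternatives were a trend, mean of probes, quantile normalization, median centring, a filter on flat genes, 2-tissue fits, array weights, a replicate block and leaving out each array. Background correction, dim-probe filters and slide could not be varied in a table of ratios. Promoters were matched by symbol.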

Additional observations from a re-analysis of the deposited data

Results flagged for a closer look

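Within the 5 crest arrays, 9 of the 84 members had an array set apart from the other 4 by more than 0.71 of the group's whole range on the log2 scale. This is 10.7% of members, a smaller share than among all genes, where 2991 of 19938 met the same limit. About 5% of groups meet it by chance. On crest array 1, Col1a2 (2.47, others 0.931 to 1.13), Col9a2 (1.67, others up to 0.995), Col28a1 (1.39, others up to 1.03), Col4a3 (1.35, others up to 1.00), Col19a1 (1.08, others up to 1.01) and Itgam (1.09, others up to 1.01) stood above the rest. Itga4 stood apart on crest array 2 (1.33, others up to 1.06). On crest array 5, Itgb3bp was high (2.96, others up to 0.985) and Col4a5 low (0.923, others 1.00 to 1.03). Of the 9, 6 are collagens and 6 lie on crest array 1, and 3 depart from their reference by 1.5-fold or more. Groups of 3 arrays were not examined in this way.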

How the results depend on the processing

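Members passing in limma numbered 0 in every comparison under every alternative run. The count over all genes was less stable. It was 6 for crest against neuroepithelium (2 with a trend, 11 with the 2 tissues alone, 5 to 19 with an array left out) and 2 for crest against mesoderm (0 with a trend, 1 to 43). It was 3 for mesoderm against neuroepithelium (5 with the 2 tissues alone, 3 to 39) and 6 for any difference (3 with a trend, 5 to 42). The cause was not tested. The highest counts came without mesoderm array 3, except 19 without neuroepithelium array 2. With the replicate block they were 6, 3, 2 and 5, and the block changed no member's call. Deviations of same-numbered arrays correlated at -0.15 to 0.05 over 9 pairs, and those of the other 30 pairs at -0.16 to 0.17. Such correlations cannot show whether same-numbered arrays share an embryo or a batch, and the labels do not say.

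In alternatives chosen after seeing the data, members 2-fold off numbered 24 after quantile normalization and 3 to 5 with an array left out (3 without crest array 1), against 5. Members 4-fold off numbered 8 after it and 1 to 2 with an array left out (1 without mesoderm array 1), against 2. The cause of the rise was not tested. Collagens higher in crest numbered 25 to 42 against neuroepithelium and 20 to 44 against mesoderm with an array left out, and those higher in mesoderm than neuroepithelium 8 to 36.

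The Sparc differences ran from -3.10 to 0.19, -2.88 to 0.18 and -2.15 to 2.05 with an array left out, for crest minus neuroepithelium, crest minus mesoderm and mesoderm minus neuroepithelium, so each changed sign. Itgb1 kept its signs and came nearest to 0 without mesoderm array 1, at -0.15 for crest minus mesoderm and 0.21 for mesoderm minus neuroepithelium, and array weights gave -0.59 and 0.61. Lamb1 in crest minus mesoderm ran from -0.20 to 0.054 (without mesoderm array 2), and in crest minus neuroepithelium from -0.45 to -0.38.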
